A study of Mus musculus with 9 samples.

Results

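Transcripts of the TGF-β pathway were measured by RNA-seq in mouse bone marrow-derived Mϕs. The 10 genes described are Tgfb1, Inhba, Tgfbr1, Tgfbr2, Smad2, Smad3, Smad4, Smad7, Skil and Tgfbi, taken by symbol from the 53379 genes of the deposited table. They were chosen by name and not by their values, although earlier results of these data were known. The study asked how IL-4 and IL-6 change gene expression in Mϕs. Bone marrow cells of wild-type C57BL/6 mice were differentiated for 3 days and treated for 4 days. All 3 groups received CSF-1, the Mϕ growth factor, at 10 ng/ml. The Control group received nothing more, the IL-4 group also received IL-4 at 10 ng/ml and the IL-6 group also received IL-6 at 100 ng/ml. These doses and times are those of the sample labels. The study's methods give another dose of IL-4, and its figure legends give other doses of both cytokines and a shorter treatment. Each group held 3 libraries (#1 to #3) from 3 mice, and the ages of the mice are not given in the sources used here. The cells were grown outside the animal in CSF-1, without tumor cells, which limits them as a model of Mϕs in tissue.

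TGF-β1, encoded by Tgfb1, is secreted in a latent complex and has to be released before it can act. Active ligand binds the type II receptor (Tgfbr2), which recruits and phosphorylates the type I receptor (Tgfbr1), and this receptor phosphorylates SMAD2 and SMAD3. These join SMAD4 and regulate target genes in the nucleus, while SMAD7 and the corepressor SnoN, encoded by Skil, restrain the signal. Inhba encodes the βA subunit of activin A, a related ligand that uses its own receptors and the same SMADs. Tgfbi encodes a secreted matrix protein that was named for its induction by TGF-β. Mϕs are known both as a source of TGF-β1 and as cells that respond to it.

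In GRCm38 Tgfb1 occupies 7:25687002-25705077, Inhba 13:16011851-16031621, Tgfbr1 4:47353222-47414931, Tgfbr2 9:116084293-116175360, Smad3 9:63646767-63757994, Skil 3:31095058-31122577 and Tgfbi 13:56609523-56639562. Each of the 10 genes is protein coding, and the summed exon length ran from 3549 bases for Smad2 to 9694 bases for Skil. The sequence upstream of the first exon is shown for the 4 genes with the largest called changes against Control: Tgfbi and Inhba, which were high with IL-6, and Tgfbr2 and Smad3, which were low with IL-4. The RefSeq windows (GRCm38.p6) read 5′ to 3′ on the gene's strand and come from chr13:56609336-56609522 (plus strand), chr13:16011601-16011850 (plus), chr9:116175364-116175613 (minus) and chr9:63757995-63758244 (minus), with CG dinucleotides in capitals.
Tgfbi: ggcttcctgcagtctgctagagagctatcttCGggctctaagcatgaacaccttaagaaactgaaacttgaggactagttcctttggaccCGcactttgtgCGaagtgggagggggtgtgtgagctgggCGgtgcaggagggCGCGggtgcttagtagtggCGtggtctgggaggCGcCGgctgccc
Inhba: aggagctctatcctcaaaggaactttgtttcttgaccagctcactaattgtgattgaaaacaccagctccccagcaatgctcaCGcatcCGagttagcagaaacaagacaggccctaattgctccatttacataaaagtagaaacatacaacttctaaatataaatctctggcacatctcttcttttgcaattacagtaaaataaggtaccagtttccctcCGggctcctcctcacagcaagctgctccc
Tgfbr2: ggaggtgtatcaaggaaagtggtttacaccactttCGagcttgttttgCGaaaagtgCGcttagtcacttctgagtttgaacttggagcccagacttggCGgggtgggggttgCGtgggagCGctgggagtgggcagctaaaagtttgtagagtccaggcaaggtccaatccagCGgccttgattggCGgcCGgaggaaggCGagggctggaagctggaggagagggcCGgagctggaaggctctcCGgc
Smad3: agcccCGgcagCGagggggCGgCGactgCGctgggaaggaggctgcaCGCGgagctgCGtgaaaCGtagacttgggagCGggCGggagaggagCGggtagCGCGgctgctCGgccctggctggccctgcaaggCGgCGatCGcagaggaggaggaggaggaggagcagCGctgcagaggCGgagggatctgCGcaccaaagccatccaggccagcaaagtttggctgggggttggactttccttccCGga
Over the 250 bases before the RefSeq start, Inhba held 3 CG dinucleotides, Tgfbr2 12, Tgfbi 15 and Smad3 22. The median over 32851 promoters was 6, and 71% of them held at least as many as Inhba, against 14.8% for Smad3. Of the Tgfbi window, the 187 bases before the annotated gene start are printed. Both strands of windows from 250 bases before to 50 after the start were searched for TTCNNNGAA (a STAT motif, in 8.3% of all promoters), TTC and GAA with 4 bases between them (the spacing of STAT6, 6.95%), CAGACA (a SMAD motif, 21%) and GTCTAGAC (the palindrome of that motif, 0.213%). None of these letter strings lay in the windows of these 4 genes, of Tgfb1 or of the first start of Tgfbr1. The window of a second annotated start of Tgfbr1 held 1 CAGACA.

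Values are FPKM, fragments per kilobase of exon and 1000000 mapped fragments, so that levels can be set side by side per length. Libraries held 29988160 to 39909571 fragments. Arg1, a gene induced by IL-4, rose with IL-4 (log2 fold change 10.58), and Socs3, a STAT3 target, rose with IL-6 (5.12). The F4/80 gene Adgre1 (106 to 523 FPKM) and Csf1r (168 to 751 FPKM) were high in all 9 libraries. Of 10 fibroblast markers, Acta2 measured 1.56 to 5.01 FPKM, highest with IL-6, and Thy1 reached 0.477 to 1.08 FPKM with IL-4 and 0.261 FPKM elsewhere, while none of the others exceeded 0.340 FPKM. The libraries fell into 2 sets that the labels do not mention. In the 3 Control libraries and IL-4 #1 (set 1), 18 Paneth and goblet cell genes summed to 55.4 to 95.8 FPKM. In IL-4 #2 and #3 and the 3 IL-6 libraries (set 2) they summed to 1.32 to 13.1 FPKM. Lyz1 made up most of the latter, and without it the other 17 summed to 41.3 to 63.0 FPKM against 0.0139 to 0.175 FPKM. Set 2 was not free of such transcripts either. The skeletal muscle genes Myh1, Myl1 and Mb were at 0 FPKM throughout set 1 and at 0.229 to 1.27 FPKM in set 2, while Tnni2 was highest in Control. All Control libraries are thus in set 1 and all IL-6 libraries in set 2, so for IL-6 against Control the treatment and the set cannot be told apart. With the set as a term, this comparison is linked only through the IL-4 libraries. Of these only IL-4 #1 is in set 1. IL-4 #3 stood apart from the other IL-4 libraries, with a root mean square difference over genes of 1.09 and 1.23 on the log2 scale, against 0.536 between those. It was low in long transcripts: genes with exons of at least 6004 bases had a median 0.95 (log2) under the mean of the 9 libraries, and those up to 1920 bases a median 0.22 above. Inhba, Tgfbr1, Tgfbr2 and Skil belong to the long genes, and IL-4 #3 was the lowest of all 9 libraries for each of them, as for Smad3, Smad4 and Smad7. Results without IL-4 #3 or with the set as a term are given for part of the changes of the 10 genes. Differences within set 2 include IL-4 #3.

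In Control Mϕs Tgfb1 had the highest FPKM of the 10 genes (72.1 ± 4.12, SD, n = 3). Tgfbr2 followed (30.4 ± 3.65), then Tgfbi (22.5 ± 1.90) and Tgfbr1 (21.9 ± 6.62), whose values overlapped. Smad4 (13.9 ± 2.90) and Smad2 (11.2 ± 1.88) overlapped as well, and so did Skil (5.56 ± 2.21) and Smad3 (5.50 ± 1.09). Smad7 (1.08 ± 0.191) and Inhba (0.412 ± 0.163) were lowest. With IL-4 the order was Tgfb1 (51.8 ± 3.52) over Tgfbi (36.7 ± 7.74), with Smad2 (12.4 ± 2.60), Smad4 (12.3 ± 3.22), Tgfbr2 (10.04 ± 3.95) and Tgfbr1 (7.88 ± 4.22) overlapping below them. With IL-6 it was led by Tgfbi (93.3 ± 1.93), above Tgfb1 (51.9 ± 3.39) in every library.

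**Figure D1:**
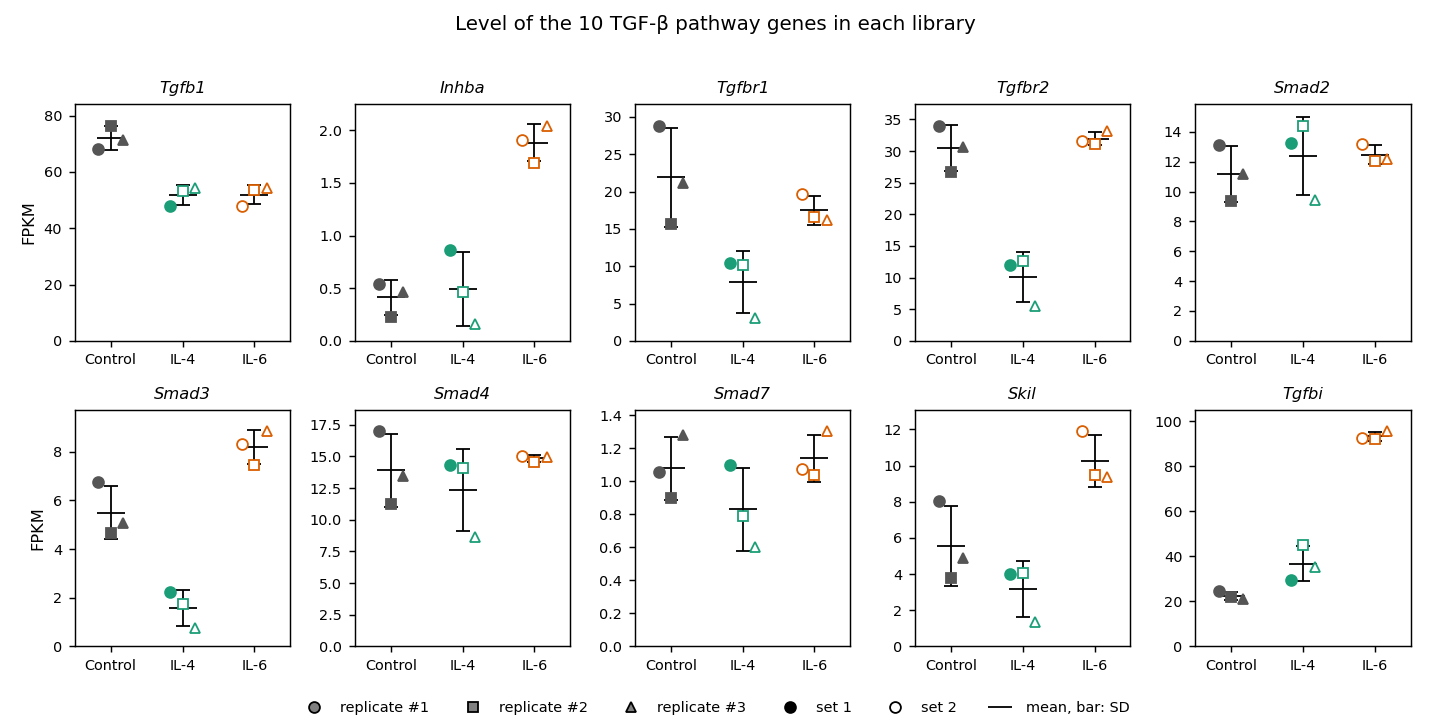
FPKM (linear axes from 0) of the 10 genes in each of the 9 libraries, by group. Symbols mark the replicate number, filled symbols are set 1 and open symbols set 2, and the horizontal bar and whiskers are the mean and SD of 3 libraries. Tgfbi reached 91.8 to 95.5 FPKM with IL-6, and the values of Tgfbr2 and Smad3 with IL-4 lay below those of the other groups.

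In the IL-4 group both TGF-β receptors and Smad3 were lower than in Control, and Tgfbi was higher to a smaller extent. Tgfbr2 stood at 33% of the Control level, Tgfbr1 at 36% and Smad3 at 28.8%, and Tgfbi at 1.63-fold. Tgfb1 stood at 71.9% of Control. Only IL-4 #1 is in the set of the Control libraries, so treatment and set are partly mixed in these values. Against the 3 Control libraries IL-4 #1 alone gave -1.33 (log2) for Tgfbr2, -1.02 for Tgfbr1, -1.25 for Smad3 and 0.40 for Tgfbi. The receptors and Smad3 were lowest in IL-4 #3, the library low in long transcripts, and both receptors are long genes. By limma with Benjamini-Hochberg adjustment over 12824 genes, 5 of the 10 genes passed an adjusted p of 0.05, 1 higher and 4 lower, where 24.8% of all genes did. With a log2 change of at least 1 as well, 3 passed (Tgfbr1, Tgfbr2 and Smad3), and 13.9% of all genes. The median log2 change was -0.42 over the 10 genes and -0.20 over all genes tested. The whole-gene median moved to -0.00 when libraries were rescaled by median ratios, and the share of higher genes among those called went from 34.4% to 49.4%, so the changes below are also given after that rescaling where the call differs. Quantile normalization gave 43.9% higher and removal of each library's length trend 46.1%. Fewer Mϕs of a kind and less RNA per cell cannot be told apart in these bulk libraries. Of 10 Mϕ markers 7 were lower and 1 higher with IL-4, with Adgre1 at 393 to 523 FPKM in Control and 106 to 254 FPKM with IL-4, and their part in the lower receptors and Smad3 was not tested.

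With IL-6 Tgfbi stood 4.15-fold and Inhba 4.56-fold over Control, with Tgfb1 at 72.1% of Control. The IL-6 and Control libraries also differ in set, so treatment and set cannot be told apart in these values. Tgfbr2 stood at 105% and Tgfbr1 at 79.9% of Control, and neither passed the test. For IL-6 against Control 3 of the 10 genes passed, Tgfbi and Inhba higher and Tgfb1 lower, where 8.4% of all genes did. Inhba entered the test only through its IL-6 libraries, and without it 2 of 9 passed. With a log2 change of at least 1, 2 passed and 5.38% of all genes. With Inhba left aside here too, only Tgfbi passed. The median was 0.14 over the 10 genes, Inhba included, and -0.00 over all. The comparisons with Control share the same 3 Control libraries.

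Set directly against IL-4, IL-6 gave higher Smad3 (5.18-fold), Inhba (3.81-fold), Skil (3.24-fold), Tgfbr2 (3.18-fold) and Tgfbi (2.54-fold). These 5 passed the test, all higher, and all 5 had a log2 change of at least 1. Leaving Inhba aside for the same reason, 4 of 9 passed. Of all genes 34.1% passed, and 20.4% with that change. The median was 1.35 over the 10 genes, Inhba included, and 0.22 over all genes. With median ratios the share of higher genes among all those called went from 61.1% to 48.5%, with quantile normalization to 48.1% and without the length trend to 47.5%, while these 5 genes passed under each of them.

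**Figure D2:**
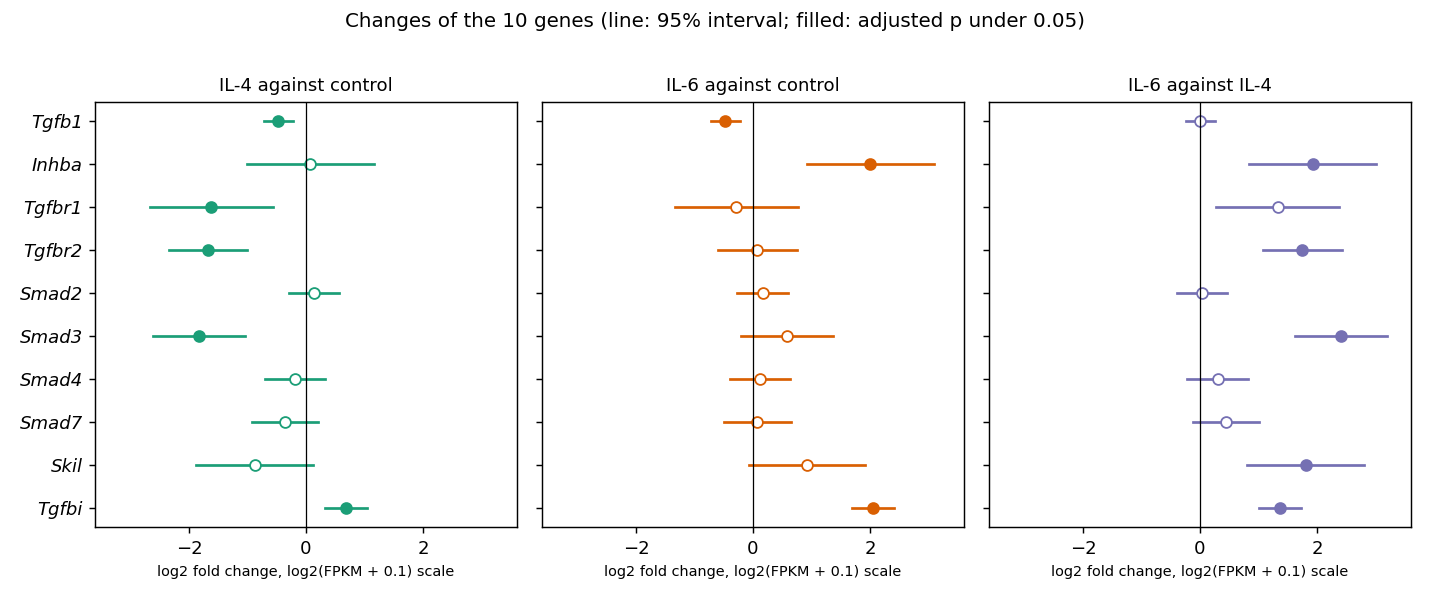
Log2 fold change on the log2(FPKM + 0.1) scale of the 10 genes in the 3 comparisons. Lines are 95% intervals from limma over 9 libraries, and filled points passed an adjusted p of 0.05. With IL-4 Tgfbr1, Tgfbr2 and Smad3 lay furthest below 0, at -1.61, -1.67 and -1.83, and with IL-6 Tgfbi and Inhba lay near 2.

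Among the ligands, Tgfb1 measured 68.2, 76.4 and 71.5 FPKM in Control #1 to #3. It measured 47.8, 53.3 and 54.4 FPKM with IL-4 and 48.0, 53.6 and 54.2 FPKM with IL-6. Every treated library was below every Control library, and the IL-4 and IL-6 values overlapped. Between 8150 and 12646 fragments stood behind each value. The log2 change was -0.48 ± 0.108 (SE; adjusted p = 0.0138) with IL-4 and -0.47 ± 0.108 (adjusted p = 0.033) with IL-6. The difference between the treatments was 0.00, with a 95% interval from -0.24 to 0.25 and an adjusted p of 0.986. An exact permutation test of 3 libraries against 3 cannot go below a two-sided p of 0.1, which is what it gave for this and for each other gene whose groups did not overlap. The IL-4 change was not called after median-ratio rescaling (-0.27, adjusted p = 0.262) or removal of the length trend (-0.26, adjusted p = 0.349), nor with only the groups compared (0.0646), nor without Control #2 (adjusted p = 0.059) or Control #3 (0.0546). The IL-6 change was not called after median-ratio rescaling (-0.50, adjusted p = 0.105) nor once the set was a term (-0.64, 0.157). It was not called without the expression filter (0.0605) or after removal of the length trend (-0.55, 0.106) either. It was called in 2 of 9 fits that each left out 1 library, without IL-4 #1 or without IL-4 #3. Platelets are rich in TGF-β1, and 7 megakaryocyte and platelet markers summed to 321 to 492 FPKM in Control, 147 to 227 FPKM with IL-4 and 1242 to 2507 FPKM with IL-6. Of them 3 were lower with IL-4 and 6 higher with IL-6, and their part in the Tgfb1 values was not tested.

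Inhba was the scarcest of the 10 genes outside the IL-6 group. Its values were 0.542, 0.230 and 0.464 FPKM in Control and 0.861, 0.460 and 0.161 FPKM with IL-4, from 41 to 188 fragments. With IL-6 they were 1.91, 1.69 and 2.04 FPKM, from 353 to 425 fragments. All IL-6 libraries lay above all others, and Control and IL-4 overlapped. Its mean passed the expression filter of 0.5 FPKM only through the IL-6 libraries, the group where it is high. The log2 change was 2.00 ± 0.472 against Control (adjusted p = 0.0376) and 1.93 ± 0.472 against IL-4 (adjusted p = 0.0153). Against Control the gene was not called without that filter (2.00, adjusted p = 0.0654), with a pseudocount of 0.01 (2.25, 0.0586) or once the set was a term (3.33, 0.0694). Leaving out any single Control or IL-6 library, or IL-4 #2, also ended that call, with adjusted p from 0.0621 to 0.141. The call against IL-4 was kept without the filter but lost without IL-6 #1 (0.0513) or IL-6 #3 (0.0553). Within set 2 the 3 IL-6 libraries were 2.37 (log2) above IL-4 #2 and #3, a value that includes the low IL-4 #3. Without IL-4 #3 the change against IL-4 was 1.43. For IL-4 against Control the change was 0.08, with an interval from -1.01 to 1.16, and it was 0.57 without IL-4 #3.

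Tgfbr2, the receptor that binds the ligand, measured 34.0, 26.7 and 30.6 FPKM in Control, 12.02, 12.6 and 5.49 FPKM with IL-4 and 31.6, 31.2 and 33.1 FPKM with IL-6. The IL-4 libraries were all below the rest, and Control and IL-6 overlapped. The log2 change with IL-4 was -1.67 ± 0.291 (adjusted p = 0.00429), and it was -1.29 without IL-4 #3 (adjusted p = 7.58e-05). When the set was a term it was -1.33 and no longer called (adjusted p = 0.0814), a term that leaves IL-4 #1 as the only IL-4 library beside the Control libraries of its set. IL-6 stood 1.75 ± 0.291 above IL-4 (adjusted p = 0.00254), 1.37 without IL-4 #3 and 1.93 within set 2, which holds IL-4 #3. Against Control the IL-6 change was 0.08, with an interval from -0.59 to 0.75.

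Tgfbr1, the receptor kinase that activates the SMADs, varied more among replicates. It measured 28.8, 15.6 and 21.2 FPKM in Control, 10.4, 10.2 and 3.01 FPKM with IL-4 and 19.7, 16.6 and 16.2 FPKM with IL-6. Again all IL-4 values were the lowest and Control and IL-6 overlapped. The log2 change with IL-4 was -1.61 ± 0.457 (adjusted p = 0.0342). It was -1.03 without IL-4 #3 and still called, but -1.02 and not called when the set was a term (adjusted p = 0.386). It was not called without the expression filter (0.0681) or with only the groups compared (0.0993) either. Leaving out any 1 of the Control or IL-6 libraries gave an adjusted p between 0.051 and 0.118. IL-6 stood 1.33 ± 0.457 above IL-4, just short of the threshold (adjusted p = 0.0539), and 0.75 above it without IL-4 #3. It passed when the set was a term (1.63, adjusted p = 0.0338), after removal of the length trend (0.95, 0.024) and without each of the IL-4 libraries (adjusted p from 0.0296 to 0.0452).

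Of the 4 SMADs among the 10 genes Smad3 passed the test. The difference between SMADs was not tested. Smad3 measured 6.74, 4.67 and 5.09 FPKM in Control, 2.22, 1.76 and 0.769 FPKM with IL-4 and 8.31, 7.45 and 8.84 FPKM with IL-6. The 3 groups did not overlap. The log2 change was -1.83 ± 0.341 with IL-4 (adjusted p = 0.00592) and 2.41 ± 0.341 for IL-6 over IL-4 (adjusted p = 0.00111). The IL-4 change was -1.41 without IL-4 #3 and -1.25 when the set was a term, where it was not called (adjusted p = 0.105). Within set 2, which holds IL-4 #3, IL-6 stood 2.70 above IL-4. Without IL-4 #3 it stood 1.99 above the other IL-4 libraries. IL-6 against Control gave 0.58 ± 0.341 (adjusted p = 0.397). A call was made once IL-4 #3 was left out (0.0326) and with only the groups compared (0.0393).

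Smad2, the partner of SMAD3 at the receptor, measured 13.1, 9.34 and 11.2 FPKM in Control, 13.3, 14.4 and 9.45 FPKM with IL-4 and 13.2, 12.04 and 12.2 FPKM with IL-6. The groups overlapped, and the changes were 0.13 (95% interval -0.30 to 0.56), 0.17 (-0.27 to 0.60) and 0.03 (-0.40 to 0.46) for IL-4 and IL-6 against Control and IL-6 against IL-4. Smad4, shared by all branches of the family, measured 17.0, 11.2 and 13.5 FPKM in Control, 14.3, 14.1 and 8.62 FPKM with IL-4 and 15.1, 14.5 and 14.9 FPKM with IL-6. IL-6 values were above all IL-4 values by 0.30 (interval -0.21 to 0.82, adjusted p = 0.304), and by 0.06 without IL-4 #3. Smad7, the inhibitory SMAD, measured 1.06, 0.900 and 1.28 FPKM in Control, 1.10, 0.788 and 0.604 FPKM with IL-4 and 1.08, 1.04 and 1.30 FPKM with IL-6. Its intervals ran from -0.93 to 0.20, from -0.49 to 0.64 and from -0.13 to 1.01 in the same order. None of these 3 SMADs passed in any comparison or in any alternative that tested it.

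Skil, the SMAD corepressor and itself a known TGF-β target, measured 8.03, 3.78 and 4.87 FPKM in Control, 4.03, 4.08 and 1.37 FPKM with IL-4 and 11.9, 9.47 and 9.34 FPKM with IL-6. All IL-6 values were the highest, while Control and IL-4 overlapped. IL-6 stood 1.81 ± 0.433 above IL-4 (adjusted p = 0.0139), 1.31 without IL-4 #3 and 2.05 within set 2. The call was lost without IL-6 #1 (adjusted p = 0.0535). The change of IL-6 against Control was 0.93 ± 0.433 (adjusted p = 0.271), and it passed without IL-4 #3 (0.0309) or without the length trend (0.72, 0.0409). The change with IL-4 was -0.88, with an interval from -1.87 to 0.12, and it was -0.38 without IL-4 #3.

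Tgfbi, the secreted target, was higher with IL-6 than in the other groups in every fit. It measured 24.6, 21.7 and 21.1 FPKM in Control, 29.7, 45.0 and 35.3 FPKM with IL-4 and 92.5, 91.8 and 95.5 FPKM with IL-6, the last from 11056 to 12167 fragments. The 3 groups did not overlap. The log2 change was 2.05 ± 0.156 for IL-6 against Control (adjusted p = 0.000215) and 1.37 ± 0.156 for IL-6 against IL-4 (adjusted p = 0.000334). Both passed in all 20 alternative fits, from 1.63 to 2.16 and from 1.14 to 1.52. When the set was a term the first was 1.63 (adjusted p = 0.0244), a value linked through the IL-4 libraries, with only IL-4 #1 in set 1. The rise with IL-4 was 0.68 ± 0.156 (adjusted p = 0.0138), and it was 0.40 and not called when the set was a term (adjusted p = 0.222), nor with only the groups compared (0.0631), nor without Control #2 (0.052) or Control #3 (0.0597). The 10 neutrophil and precursor genes summed to 4751 to 8481 FPKM in Control, 2146 to 3987 FPKM with IL-4 and 7913 to 11002 FPKM with IL-6. Of them 8 were lower with IL-4 than in Control, and none was called for IL-6 against Control, where the sums overlapped. All 10 were higher with IL-6 than with IL-4. Their part in the Tgfbi result was not tested.

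**Figure D3:**
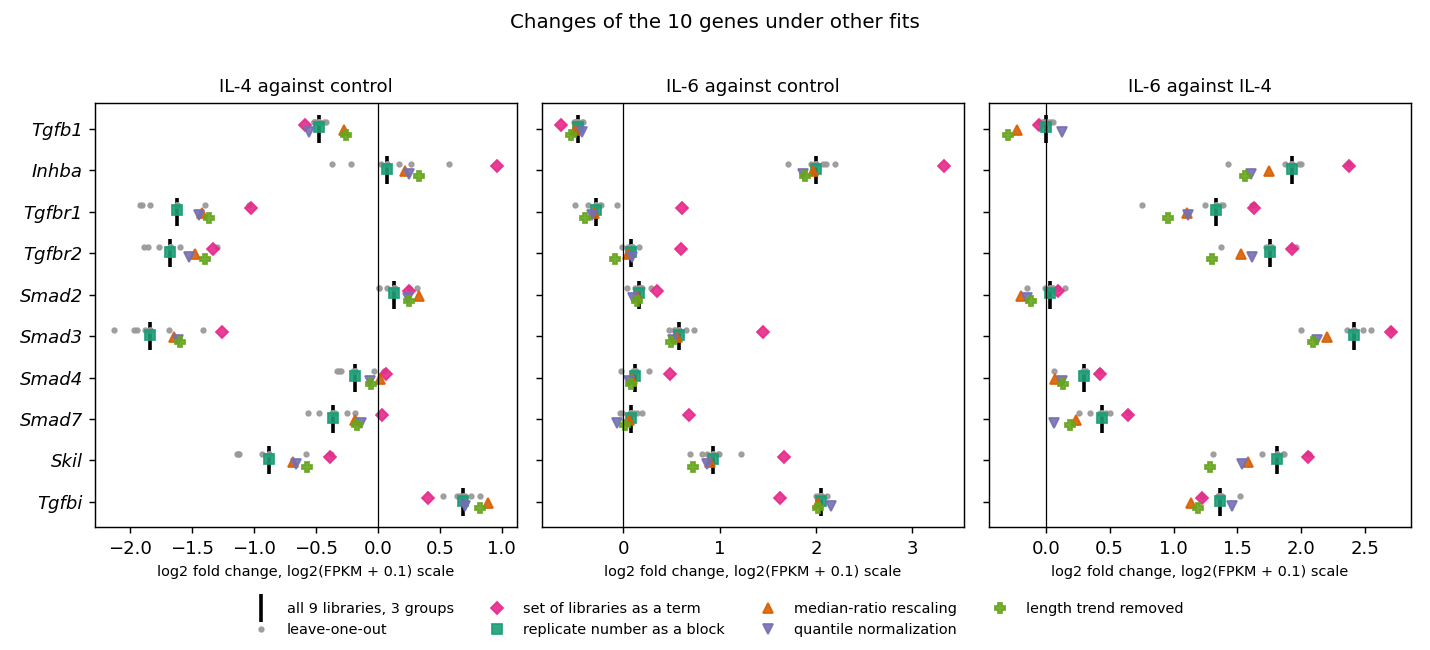
Log2 fold change of the 10 genes in the 3 comparisons under other fits: each library left out (grey dots), the set of libraries as a term, the replicate number as a block, 2 rescalings and removal of each library's length trend. Black bars are the values of the fit over 9 libraries in 3 groups. Tgfbr2 and Smad3 with IL-4 stayed below -1.2 and Tgfbi for IL-6 against Control above 1.6, and the set term moved the values furthest for Inhba.

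The genes whose pattern over the 9 libraries was most like each changed gene were read from Pearson's r on log2(FPKM + 0.1), as a description. The libraries share the group structure, the sets and the low long transcripts of IL-4 #3. For Tgfbr2 they were Ttc7, Serp1 and Trpm2 (r 0.998 for each), and for Smad3 Lpin2, Rap1gap2 and Rassf2 (0.998 for each). For Tgfbr1 they were Kif13b (0.997), Tctn3 (0.997) and Gtf2ird1 (0.996), and for Skil Rlf (0.999), 2010315B03Rik (0.998) and Sntb2 (0.995). Those of Inhba were Vash1 (0.990), Cd226 (0.983) and Stat3 (0.982), the last the transcription factor that transmits the IL-6 signal. Those of Tgfbi were Kcnk13 (0.987), Pla2g7 (0.983) and Smpdl3b (0.981). Among the 10 genes themselves Tgfbr2 and Smad3 were most alike (0.977), followed by Tgfbr1 and Tgfbr2 (0.945), and Tgfb1 and Tgfbi least (-0.684).

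The rest of the pathway was read from 95 other genes in 6 lists, of which 64 passed the expression filter. Of these, 28 passed the test for IL-4 against Control (14 higher, 14 lower, median -0.25). For IL-6 against Control 12 passed (9 higher, 3 lower, median 0.27), and for IL-6 against IL-4 32 passed (20 higher, 12 lower, median 0.48). Among all genes these shares were 24.8%, 8.4% and 34.1%, which also stand beside the counts of each list below. The counts include genes that passed the filter only through the group where they were high. Among them were Pmepa1, Fstl1, Cdkn2b and Cd109, through IL-4, and Ltbp1, through IL-6. When the set was a term, 20, 1 and 37 genes passed, where 1367, 187 and 5037 of all 12824 genes did. The only one left for IL-6 against Control was Mmp14.

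Of 15 other ligands only Gdf15, Bmp2 and Gdf3 were tested, and Tgfb2 (mean 0.0237 FPKM), Tgfb3 (0.224) and Inhbb (0.00598) were near 0. Bmp2, a bone morphogenetic protein, measured 4.15 to 4.95 FPKM in Control, 0.317 to 0.464 FPKM with IL-4 and 2.88 to 3.83 FPKM with IL-6. It fell by 3.25 (log2) with IL-4 and was 2.81 higher with IL-6 than with IL-4 (adjusted p = 1.19e-05 and 1.55e-05). Gdf15, a stress-induced member of the family, was lower under IL-4 (-0.96, adjusted p = 0.0242) and under IL-6 (-1.27, 0.0182). It was not called for IL-4 after median-ratio rescaling (0.112), nor for IL-6 when the set was a term (0.102).

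Genes that hold or release latent TGF-β changed in different directions. Of 15, 10 were tested. With IL-4 3 rose and 3 fell, with IL-6 4 rose, and between the treatments 5 were higher and 2 lower with IL-6. Lrrc32 encodes GARP, a surface anchor for latent TGF-β. It rose from 0.533 to 0.699 FPKM in Control to 11.1 to 22.7 FPKM with IL-4 (4.61 ± 0.274, adjusted p = 1.78e-05), and measured 0.799 to 1.12 FPKM with IL-6. Thbs1 encodes thrombospondin-1, a platelet and matrix protein that activates latent TGF-β. It measured 111 to 206 FPKM in Control, 10.9 to 39.7 FPKM with IL-4 and 939 to 1048 FPKM with IL-6. Its log2 change was -2.53 under IL-4 (adjusted p = 0.00555) and 2.81 under IL-6 (adjusted p = 0.0087). When the set was a term neither was called (0.0966 and 0.099), but IL-6 over IL-4 was (5.59, adjusted p = 0.000277). Mmp14, a membrane protease, followed the same order at 23.8 to 30.7, 1.59 to 2.50 and 127 to 139 FPKM, with changes of -3.68 under IL-4 and 2.27 under IL-6 (adjusted p = 6.06e-06 and 0.000241). Itgb3, the β3 chain of an integrin that binds latent TGF-β and is also carried by platelets, was higher with both (0.95 and 1.66, adjusted p = 0.0193 and 0.00403). Ltbp1, a latent TGF-β binding protein, rose from 0.344 to 0.404 FPKM in Control to 1.36 to 2.17 FPKM with IL-6 (1.93, adjusted p = 0.00557). Ltbp1 passed the filter only through the IL-6 libraries, and it was called without the filter as well. Adding the set as a term removed the IL-6 calls of Itgb3 and Ltbp1 (adjusted p = 0.0799 and 0.126) and the IL-4 call of Itgb3 (0.0713). The platelet marker Pf4 measured 268 to 410, 107 to 206 and 1000 to 2042 FPKM in Control, IL-4 and IL-6. Osteoclasts also carry the β3 integrin, and 8 osteoclast markers summed to 212 to 281 FPKM in Control, 935 to 1109 FPKM with IL-4 and 103 to 152 FPKM with IL-6. These markers did not move together. Of 6 tested, 5 were higher and 1 was lower with IL-4 than in Control. The lower one was Mmp9, at 46.1 to 56.6 FPKM in Control and 13.7 to 16.1 FPKM with IL-4. Calcr and Oscar did not exceed 0.0893 FPKM in any library. The part of these markers' cells in the changes of Thbs1 and Itgb3 was not tested.

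**Figure D4:**
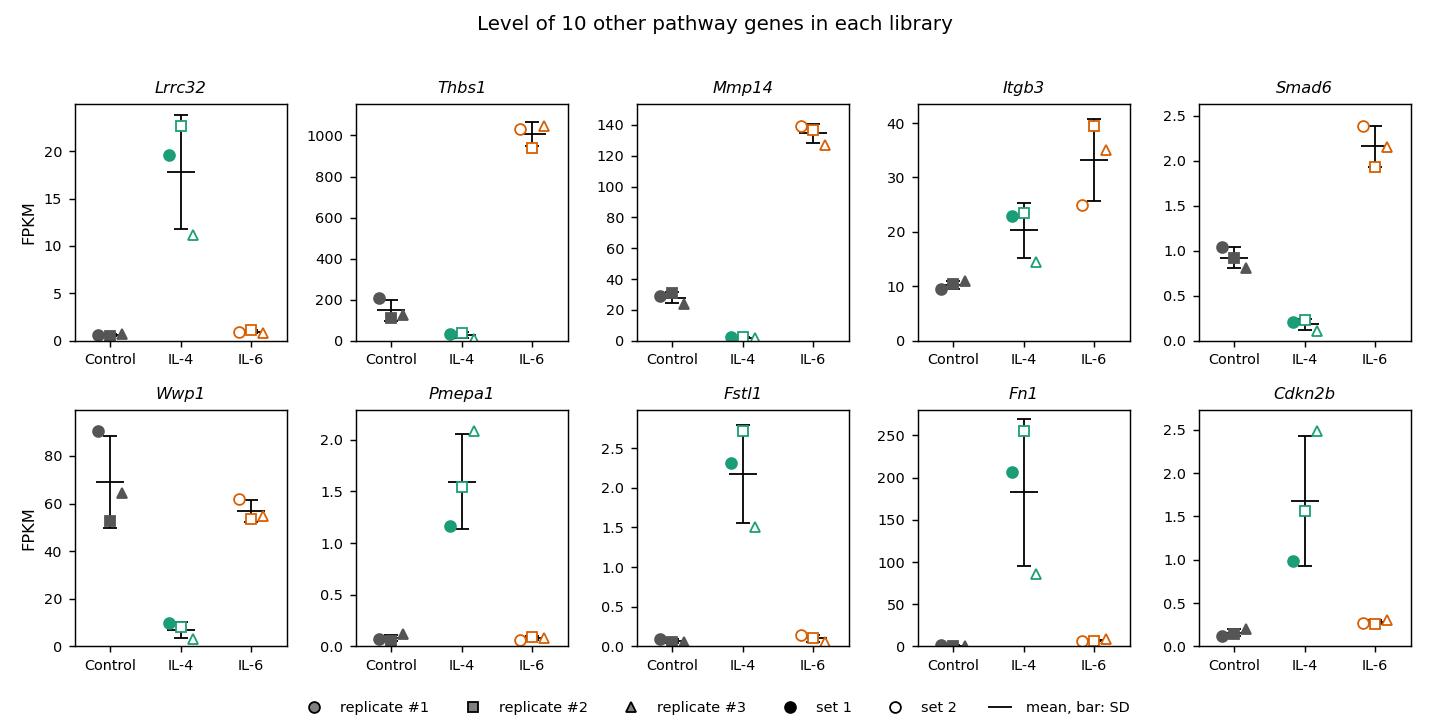
FPKM (linear axes from 0) in each library of 10 other genes of the pathway among those named in the text, with symbols, fills and bars as in the plot of the 10 members. Lrrc32, Pmepa1, Fstl1, Fn1 and Cdkn2b were highest with IL-4, and Thbs1, Mmp14 and Smad6 with IL-6.

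Of 14 receptors and co-receptors 11 were tested. With IL-4 Eng (endoglin) rose by 1.10 and Acvrl1 (ALK1, its partner type I receptor) by 1.00 (adjusted p = 0.00292 and 0.00237), both also when the set was a term. Tgfbrap1, a receptor-associated protein, fell by 1.06 (adjusted p = 0.0306), and this was lost when the set was a term (0.374). With IL-6 1 gene was called, where 8.4% of all genes were. This was Cd109, a co-receptor that restrains TGF-β signalling. It went from 0.519 to 0.801 FPKM in Control to 0.120 to 0.142 FPKM (-1.67, adjusted p = 0.0359), and was lost without the expression filter and with the set as a term (0.34). Against IL-4, IL-6 gave higher Acvr1b and Acvr2a, which encode activin receptors (1.49 and 1.30, adjusted p = 0.0126 and 0.0283), higher Tgfbrap1 (1.05, 0.0253) and lower Cd109 (-2.68, 0.00124). Cd109 passed the filter only through the IL-4 libraries, where it measured 0.697 to 1.95 FPKM, and this last call was kept without the filter. The calls of Acvr2a and Tgfbrap1 were not. Of the other SMADs, 3 of 4 were tested and Smad6, the inhibitory SMAD best known in BMP signalling, changed. It measured 0.809 to 1.05 FPKM in Control, 0.109 to 0.226 FPKM with IL-4 and 1.93 to 2.39 FPKM with IL-6. The log2 changes were -1.88 under IL-4 (adjusted p = 0.000849), 1.14 under IL-6 (0.0247) and 3.02 between them (4.58e-05), and that with IL-6 was lost when the set was a term (0.184).

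Of 26 regulators 23 were tested. With IL-4 4 rose and 3 fell, where 24.8% of all genes were called. Wwp1, a ubiquitin ligase that acts on the receptor with SMAD7, went from 52.5 to 90.3 FPKM in Control to 3.16 to 9.64 FPKM (-3.41, adjusted p = 5e-04), and was 53.4 to 61.9 FPKM with IL-6. Pmepa1, which keeps SMAD2 and SMAD3 from the receptor and is a TGF-β target, went from 0.0543 to 0.116 FPKM to 1.17 to 2.08 FPKM (3.21, adjusted p = 0.000326). Fstl1, a secreted follistatin-like protein, went from 0.0522 to 0.0991 FPKM to 1.50 to 2.71 FPKM (3.71, adjusted p = 0.000184). Pmepa1, Fstl1 and the target Cdkn2b passed the filter only through the IL-4 libraries, and were called without the filter too. Fkbp1a, which binds the type I receptor, rose by 0.72 (adjusted p = 0.0266), and was not called when the set was a term (0.38, 0.371), without the filter or with only the groups compared. For IL-6 against Control limma called 0 of the 23, with 5 at an unadjusted p under 0.05, and voom on recovered fragments called 1. Against IL-4, IL-6 gave higher Wwp1 (3.15, adjusted p = 0.000548) and Tab2, an adaptor of the kinase TAK1 (1.21, 0.0128), and lower Fstl1 (-3.48) and Pmepa1 (-3.21).

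Of 24 target genes 16 were tested. With IL-4 6 rose and 4 fell. Fn1, fibronectin, a product of Mϕs and fibroblasts, went from 0.873 to 1.25 FPKM in Control to 85.9 to 255 FPKM with IL-4 (7.14 ± 0.369, adjusted p = 9.22e-06) and to 6.65 to 8.37 FPKM with IL-6 (2.64, adjusted p = 0.00411). The 10 fibroblast markers summed to 3.47 to 3.99 FPKM in Control, 2.96 to 3.64 FPKM with IL-4 and 5.36 to 5.96 FPKM with IL-6. Cdkn2b, a cell cycle inhibitor that TGF-β induces, rose by 2.71 with IL-4 (adjusted p = 0.000867), from 6 to 10 fragments in Control to 47 to 138. Spp1, osteopontin, ran the other way at 623 to 840 FPKM in Control, 96.7 to 142 FPKM with IL-4 and 2473 to 3190 FPKM with IL-6 (-2.69 and 1.90, adjusted p = 4.02e-05 and 0.000777). With IL-6 4 of the 16 rose and 1 fell. Junb, an AP-1 subunit, rose by 1.32 (adjusted p = 0.000777), and Id3, an inhibitor of differentiation factors, fell by 1.23 (0.0283). Fn1, Spp1, Junb and Id3 were not called for IL-6 against Control when the set was a term (adjusted p from 0.0658 to 0.250). Between treatments 6 were higher with IL-6 and 4 lower. The collagen genes Col1a1, Col1a2 and Col3a1, targets in fibroblasts, had means under 0.5 FPKM and did not enter the test.

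Of the 45 calls of named pathway genes, 35 were kept when each library was left out in turn. For IL-4 against Control, those of Gdf15 (without Control #2 or #3 or IL-4 #1 or #2, adjusted p up to 0.0873), Itgb3 (without any Control library or IL-4 #2, up to 0.07), Tgfbrap1 (without any Control or IL-6 library, up to 0.109) and Fkbp1a (without any Control library, IL-4 #2 or IL-6 #2, up to 0.094) were lost. For IL-6 against Control, those of Gdf15 (without Control #2 or #3 or IL-6 #1 or #3, up to 0.0844), and of Cd109, Smad6 and Id3 (without any Control or IL-6 library, up to 0.152, 0.117 and 0.112) were lost. For IL-6 against IL-4, Acvr2a and Tgfbrap1 lost theirs without any 1 IL-6 library (up to 0.102 and 0.0843). Among the other alternatives, Gdf15 was also not called for IL-4 with median ratios, Tgfbrap1 for IL-4 without the filter, and Tgfbrap1 in both comparisons with only the groups compared. For IL-6 against Control this held for Cd109 with a pseudocount of 1 and with voom, for Smad6 with a pseudocount of 0.01 and for Id3 without the filter. Leaving out IL-4 #3 moved Thbs1 with IL-4 from -2.53 to -1.94, Wwp1 from -3.41 to -2.92 and Tgfbrap1 from -1.06 to -0.72. It moved IL-6 over IL-4 from 1.05 to 0.71 for Tgfbrap1 and from 1.49 to 1.03 for Acvr1b, and all of these were still called. Without the length trend Tgfbrap1 stood at 0.48 in the last comparison.

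**Figure D5:**
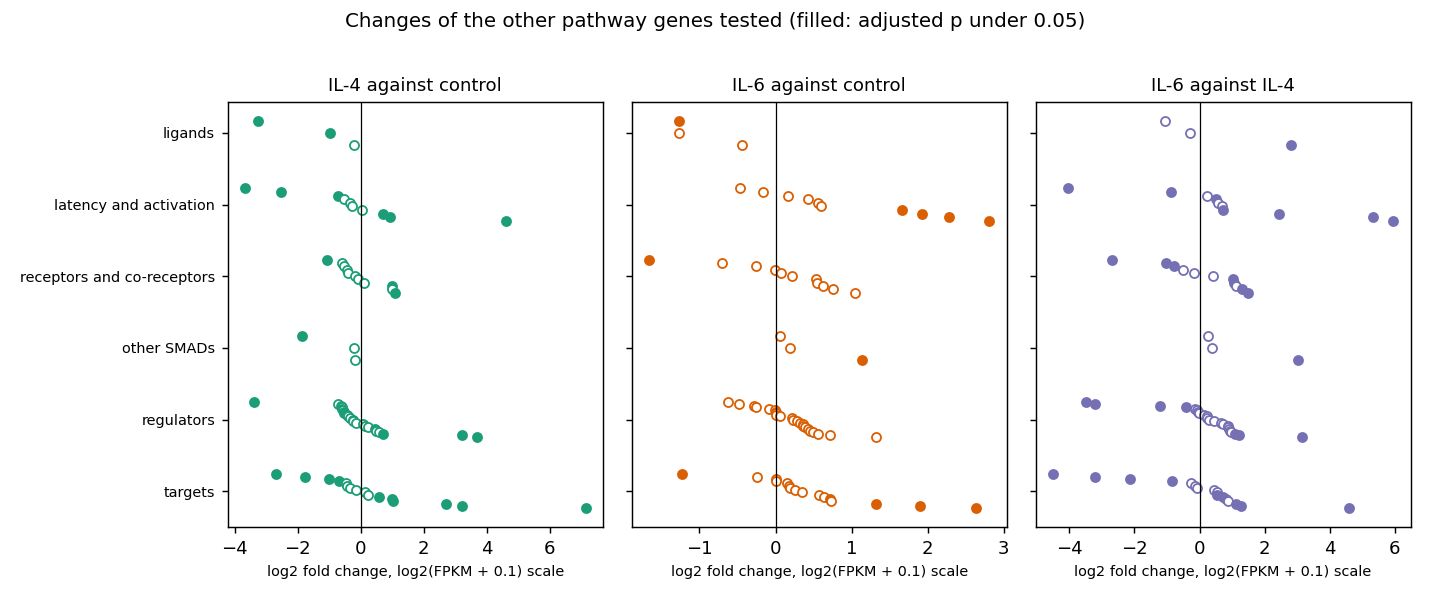
Log2 fold change on the log2(FPKM + 0.1) scale of the other pathway genes tested, by list, in the 3 comparisons. Each point is a gene, and filled points passed an adjusted p of 0.05. Among regulators no point is filled for IL-6 against Control, and Fn1 at 7.14 is the furthest point for IL-4.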

How the data were processed

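RNA-seq libraries of mouse bone marrow-derived Mϕs, 3 per group, were made with a TruSeq mRNA stranded kit and sequenced on a HiSeq2500. The deposited table holds FPKM computed by the authors. Their methods name STAR 2.4.2a, GRCm38, Cufflinks 2.2.1 and GENCODE M5. The FPKM steps were whole fragments over the summed exon lengths of GENCODE M21 (100% of 109681 values within 0.05, tested at up to 200 fragments), which Cufflinks need not give, so how the table was made is not settled. Of 53379 identifiers 53274 were matched to symbols.

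Genes averaging 0.5 FPKM or more over the libraries (12824) were fitted as log2(FPKM + 0.1) with limma 3.58.1 (R 4.3.3), 3 groups in one model, trend and robust settings, and Benjamini-Hochberg adjustment over all genes. Fold changes of low genes are understated on this scale. The script was tested on simulated data. Members and lists were chosen with earlier results of these data known. All members were named, and from each other list up to 4 called genes with the largest change. The 3 genes of highest r were named for each member with a call and a log2 change of at least 1.

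The deposited column headers number the libraries of each group m1 to m3, without saying what the m stands for. The sources used here do not state whether same-numbered libraries of different groups came from one mouse, so they were not paired. Alternatives were other pseudocounts, filters, normalizations, the set of libraries or the replicate number as a term, only the groups compared, voom on recovered fragments, each library left out and, added after the data were seen, removal of length trends. RefSeq promoters (GRCm38.p6) of 6 members were used.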

Additional observations from a re-analysis of the deposited data

How the results depend on the processing

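For IL-4 against Control, 5 members were called, against 2 with only the groups compared, 1 with the set as a term, 3 with a log2 change of at least 1 and 2 to 5 when 1 library was left out. For IL-6 against Control, 3 were called, against 1 without a filter, 1 with the set as a term and 1 to 5 when 1 library was left out, 5 being without IL-4 #3. For IL-6 against IL-4, 5 were called, and 3 to 6 when 1 library was left out. Of the other pathway genes, IL-4 against Control called 28, and 16 with a log2 change of at least 1 (19 to 33 with 1 library left out). IL-6 against Control called 12, against 22 with only the groups compared, 1 with the set as a term and 8 to 24 with 1 library left out, 24 being without IL-4 #3. IL-6 against IL-4 called 32, against 21 with a mean of at least 5 FPKM (24 to 37 with 1 library left out). The cause of these shifts was not tested. In the fit of 3 groups without the set term, IL-4 libraries enter IL-6 against Control only through the estimate of spread that the groups share. Without IL-4 #3 the median log2 change of that comparison stayed at -0.00 over all genes, and 3168 genes were called against 1077. Some of these fits hold fewer libraries or genes. Over all genes, only the groups compared called 1796, 2822 and 3009 in the same order, against 3186, 1077 and 4375, and the set as a term called 1367, 187 and 5037. With the replicate number as a block, 5, 2 and 6 members and 26, 12 and 31 other genes were called. Inhba lost its call for IL-6 against Control (2.00, adjusted p = 0.0515), Cd109 did too (0.0744), and Tgfbr1 gained one for IL-6 against IL-4 (1.33, 0.045). Correlations of the deviations of libraries #1 to #3 were 0.521, -0.415 and 0.0777 for IL-4 with Control, 0.408, 0.201 and 0.166 for IL-6 with Control, and 0.281, -0.0612 and 0.153 for IL-6 with IL-4. Of 6 libraries in each comparison, 3, 5 and 3 correlated best with their own number. No called member changed sign in any of these fits. Genes under 100 fragments, such as Inhba in Control #2, are limited by counting error.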
